A study of Mus musculus with 4 samples.

Results

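Mature dendritic cells (DC) marked by Fscn1 and Ccr7 were 527 of the 51841 cell barcodes kept from 4 libraries of leukocytes of mouse KPC tumors. The members were chosen by their detected UMIs. A barcode was counted as a mature DC when at least 2 of Fscn1, Ccl22 and Ccr7 were detected together with H2-Aa, and when Cd3e, Cd79a, Ms4a1, C1qa and Csf3r, which mark T cells, B cells, macrophages and neutrophils, each had no unique molecular identifier (UMI). Kept barcodes had 300 to 5000 genes and at most 6% of their UMIs from mitochondrial genes. The untreated library held 138 mature DC, the ADU-S100 library 100, the anti-LTβR library 153 and the combination library 136. Where 4 values follow each other below, they stand in this order.

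Dendritic cells take up antigen in a tissue and present it to T cells. When they are activated, both conventional types, cDC1 and cDC2, can enter a shared maturation program. They express CCR7, the receptor for the lymph node chemokines CCL19 and CCL21, and fascin (Fscn1), an actin-bundling protein of their long processes, and they carry more co-stimulatory molecules. The same cells express the checkpoint ligand PD-L1 (Cd274) and the chemokines CCL17 and CCL22, which attract T cells bearing CCR4, and in tumors they are known as mature regulatory DC. STING, the target of ADU-S100, relays the sensing of cytosolic DNA into interferon and NF-κB signaling, and the lymphotoxin-β receptor (LTβR) signals through the noncanonical NF-κB pathway, in which NIK (Map3k14) and RelB act.

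KPC is a mouse pancreatic cancer line, and it was grown under the skin of male C57BL/6 mice of 8 to 10 weeks. The untreated group is the common control. The ADU-S100 group received 2 μg of this STING agonist into the tumor once, on day 0, the anti-LTβR group received 100 μg of the agonist antibody 4H8 into the peritoneum 4 times up to day 10, and the combination group received both. Tumors of all groups were removed on day 14, and 10 tumors per group were pooled and sorted for live CD45+ cells, so each group was 1 library. Animals within a library cannot be told apart. Lymph nodes, where mature DC arrive, were not part of these libraries, although the study examined draining nodes by flow cytometry and staining.

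Each treatment had a single library here, so the groups could not be tested against each other, no p-value is given, and no difference has a replicate check. The methods of the study report more than 1 independent single-cell experiment, and only this one was used here. All intervals are 95% intervals for counting error. The UMIs of a gene come in clusters, cell by cell, so these intervals are narrower than the spread between cells and say nothing of the spread between mice. A level is the sum of a gene's UMIs over the mature DC of a library, scaled to 1000000 of their UMIs (CPM). It does not separate more cells with the gene from more UMIs in the same cells, and the number of cells is therefore given beside it. A gene was called higher or lower when its log2 ratio was at least 1 in size, its interval left out 0, both libraries together held at least 50 of its UMIs, and at least 5 mature DC of the higher library had it. The mature DC of the 4 libraries held 1021362, 727041, 1063382 and 608436 UMIs, with medians of 6973, 7093, 6659 and 3645 UMIs per cell. The combination library was the shallowest, also over all kept barcodes, whose medians were 4653, 3235, 3773 and 2235 UMIs.

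The mature DC were set beside other dendritic cells of the same libraries. Cells with at least 2 of Xcr1, Clec9a and Cadm1 served as cDC1 and cells with Flt3 and either Cd209a or Clec10a as cDC2, each with H2-Aa and without the 5 excluded genes. Of 5749 genes that could be compared, 250 (4.35%) were called higher in mature DC than in both types in all 4 libraries, and 116 (2.02%) were called lower. The rule chose the cells on this contrast, so these counts describe them and test nothing. Apol7c (ENSMUSG00000044309), an apolipoprotein L family member that the rule did not use, had no UMI in any cDC1 or cDC2 and 36, 32, 188 and 73 UMIs in mature DC. Il12b, the p40 subunit shared by IL-12 and IL-23, had a lowest ratio of 4.41 on the log2 scale over the 8 comparisons, and no UMI in the cDC2 of the first 3 libraries. Cacnb3, a calcium channel subunit, had a lowest ratio of 4.31 and no UMI in the cDC2 of the untreated and anti-LTβR libraries. The ratios against these cells without a UMI depend on the pseudocount and are not given. Ccl5, a T cell chemokine, was higher by 5.85 to 8.51. The inhibitory ligand Cd200 (5.02 to 6.47), the cytokine signaling suppressor Socs2 (4.11 to 7.66), the enzyme Il4i1, which breaks down amino acids (lowest ratio 2.49, with no UMI in the cDC1 of the ADU-S100 and anti-LTβR libraries), and the IL-15 presenting receptor Il15ra (3.49 to 5.12) were called in the same way.

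Genes that were lower in mature DC in all 8 comparisons included Cd180, a TLR-like receptor (-4.48 to -2.31), the gut homing integrin Itgb7 (-2.95 to -1.54) and the TGF-β receptor Tgfbr2 (-2.80 to -1.54). The cDC1 receptor Xcr1 had 6, 12, 19 and 9 UMIs in mature DC. Of the checkpoint ligands, Cd274 was higher by 1.80 to 2.40 and PD-L2 (Pdcd1lg2) by 1.24 to 3.10. The co-stimulatory receptor Cd40 was higher by 1.36 to 3.67, whereas Cd80 (0.47 to 3.55) was not called in every comparison. The genes named here were picked by role and not by rank, so they describe the chosen cells and do not test the label.

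**Figure D1:**
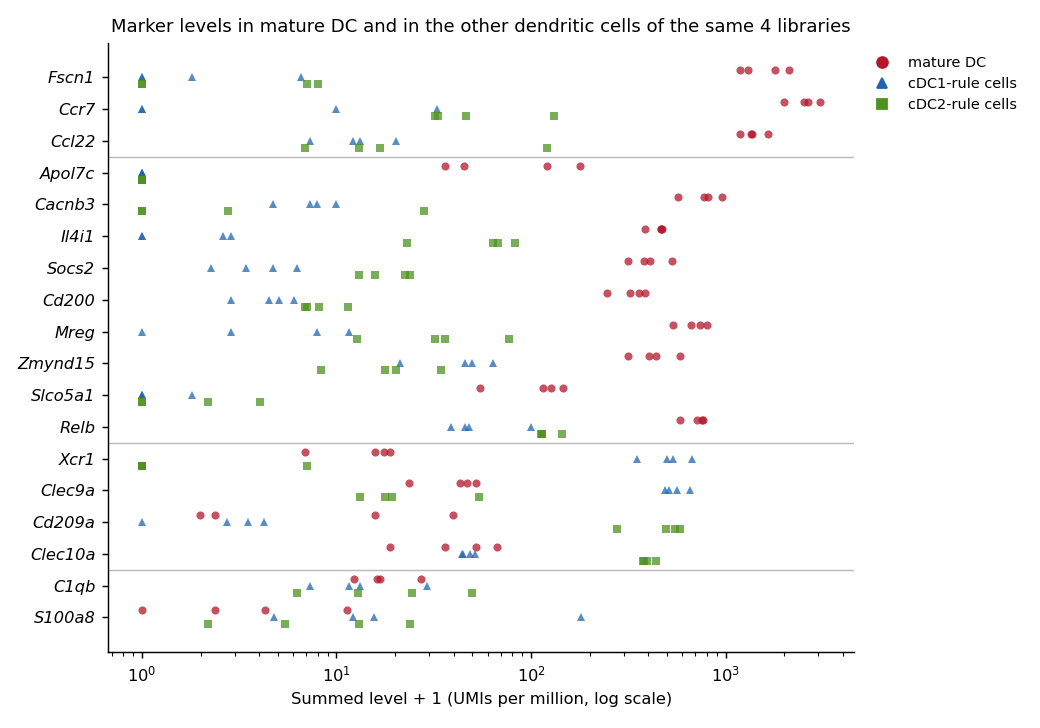
Level of marker genes summed over mature DC, cDC1 and cDC2, in CPM plus 1 on a log axis, with 1 point per library. The first 3 genes were used by the rule; Apol7c has no UMI in any cDC1 or cDC2, while Xcr1 and Clec9a mark cDC1 and Cd209a and Clec10a mark cDC2.

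In droplets, free RNA gives UMIs to cells that do not express a gene, and its level for the rule genes can be read from other cells. The rule fixed a high detection in the members, so the values below describe them and do not test them against this background. Fscn1 was detected in 81.9, 67, 76.5 and 69.9% of mature DC and in 0.712, 0.590, 0.487 and 1.10% of T cells. Ccl22 was detected in 81.9, 82, 90.2 and 72.1% of mature DC and in 0.142, 0.295, 0.195 and 0.549% of T cells. T cells, whose naive and memory members use CCR7 themselves, had Ccr7 in 10.1 to 18.3%, while macrophages had it in 1.21 to 1.87%. T cells here had Cd3e and Trac and no C1qa, and macrophages had C1qa and C1qb and no Cd3e. Macrophages with H2-Aa and at least 2 of the rule's markers were left out, so their low rate is in part fixed. T cells had median depths of 4580.5, 4875, 3624.5 and 2443.5 UMIs, and macrophages of 8053, 8488, 5966 and 4030 UMIs.

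Cells on both sides of the threshold differed in genes that the rule did not use. In the untreated library, Cacnb3 stood at 2.31 CPM in H2-Aa cells with none of the 3 markers, at 83.8 in the 120 cells with 1, at 396 in the 54 with 2 and at 1269 in the 84 with all 3. In the combination library, it stood at 2.05, 40.4, 318 and 966 CPM. The cells just inside the rule thus lay between the cells just outside it and the cells with all markers. All 3 markers were detected in 84 of 138, 47 of 100, 100 of 153 and 49 of 136 mature DC, which is 60.9, 47, 65.4 and 36.0%. After thinning to 2000 UMIs per cell, they were detected in 57 of 132, 25 of 86, 75 of 140 and 35 of 108. Of the 7 further markers Cacnb3, Il4i1, Socs2, Mreg, Cd200, Relb and Zmynd15, the median mature DC had 6, 5, 5 and 4. In the combination library 22 of 136 had 1 or none, compared to 13, 8 and 12 in the other libraries.

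The 5 excluded genes removed 35 of 173, 54 of 154, 49 of 202 and 72 of 208 cells that otherwise met the rule. Most were lost to C1qa, a complement gene of macrophages, with 17.9, 27.3, 16.3 and 29.8% of those cells. T cells, which do not make it, had a C1qa UMI in 12.5, 10.8, 7.41 and 11.4%. For this rate they were the 800, 379, 1106 and 615 cells with Cd3e and Trac that did not meet the marker part of the rule. Between 34 and 83 barcodes were shared by each pair of libraries, at most 0.539% of the smaller one, and no mature DC barcode was a mature DC in another library. Markers of other cell types were present at low levels, and some differed between the libraries. Of 11 macrophage genes, the summed level was 241, 173, 203 and 404 CPM, and C1qb had 16, 11, 12 and 16 UMIs. The summed level of B and plasma cell genes was 47.0, 28.9, 151 and 1174 CPM. In the combination library a single mature DC held 80.9% of the Ighm UMIs, a single one held 61.0% of the Igkc UMIs, a single one held 69.8% of the Jchain UMIs, and a single one held all 207 UMIs of Mmp9, a neutrophil and macrophage protease. T cell genes summed to 65.6, 92.2, 31.0 and 70.7 CPM. The part of such cells in the results below was not tested, other than through the alternatives named beside them.

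The first comparison asked how the share of mature DC among tumor leukocytes differed between the treatments. In the untreated library 1.77% (1.49 to 2.09%) of kept barcodes were mature DC. The share was 0.698% (0.568 to 0.848%) after ADU-S100 and 1.09% (0.925 to 1.28%) after anti-LTβR, and in the combination library it was 0.866% (0.727 to 1.02%). Divided by the untreated share, this is 0.393 (0.305 to 0.508), 0.614 (0.489 to 0.772) and 0.488 (0.386 to 0.618). The share was lower in every treated library than in the untreated one, and these intervals did not overlap that of the untreated share. Set against the single agents, the share in the combination library was 1.24 times (0.960 to 1.61) that of the ADU-S100 library and 0.795 times (0.632 to 1.0005) that of the anti-LTβR library, and both intervals included 1. These ratios depended on the setting. Over ADU-S100 the ratio was 1.54 (1.11 to 2.12) after thinning to 2000 UMIs, 0.951 (0.638 to 1.42) with all 3 markers and 0.774 (0.599 to 0.9999) without Csf3r barcodes. Over anti-LTβR it was 0.907 (0.685 to 1.20), 0.438 (0.312 to 0.616) and 0.766 (0.609 to 0.963) in the same settings. No order of the combination and ADU-S100 libraries therefore held across the settings.

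The shares of the other dendritic cells were compared in the same way. The cDC1 were 109, 47, 83 and 87 cells. Set against the untreated library, their share ratios were 0.234 (0.166 to 0.329), 0.422 (0.317 to 0.560) and 0.395 (0.299 to 0.523). The cDC2 were 74, 59, 109 and 64 cells, with ratios of 0.433 (0.308 to 0.609), 0.816 (0.608 to 1.09) and 0.428 (0.307 to 0.598), and the interval for anti-LTβR included 1. Of the 3 kinds together, mature DC made up 43.0% (37.5 to 48.6%), 48.5% (41.5 to 55.6%), 44.3% (39.0 to 49.8%) and 47.4% (41.5 to 53.3%), which gives treated-to-untreated ratios of 1.13 (0.935 to 1.36), 1.03 (0.868 to 1.23) and 1.10 (0.925 to 1.31). These 3 intervals included 1. With 206 to 345 dendritic cells and 1 library per group, no difference in the mature share of DC could be shown.

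The size of the difference depended on the denominator and the depth. Barcodes with Csf3r, the neutrophil receptor for G-CSF, were many in the ADU-S100 library, and without them mature DC were 2.31, 1.37, 1.39 and 1.06%, a ratio to untreated of 0.593 for ADU-S100. After thinning to 2000 UMIs, which left out shallower barcodes, the shares were 1.51, 0.637, 1.08 and 0.980%, and the combination ratio became 0.647. With all 3 markers required, the shares were 1.08, 0.328, 0.712 and 0.312%, and the combination ratio was 0.289. In each of these 3 settings the share of all 3 treated libraries stayed below that of the untreated library.

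**Figure D2:**
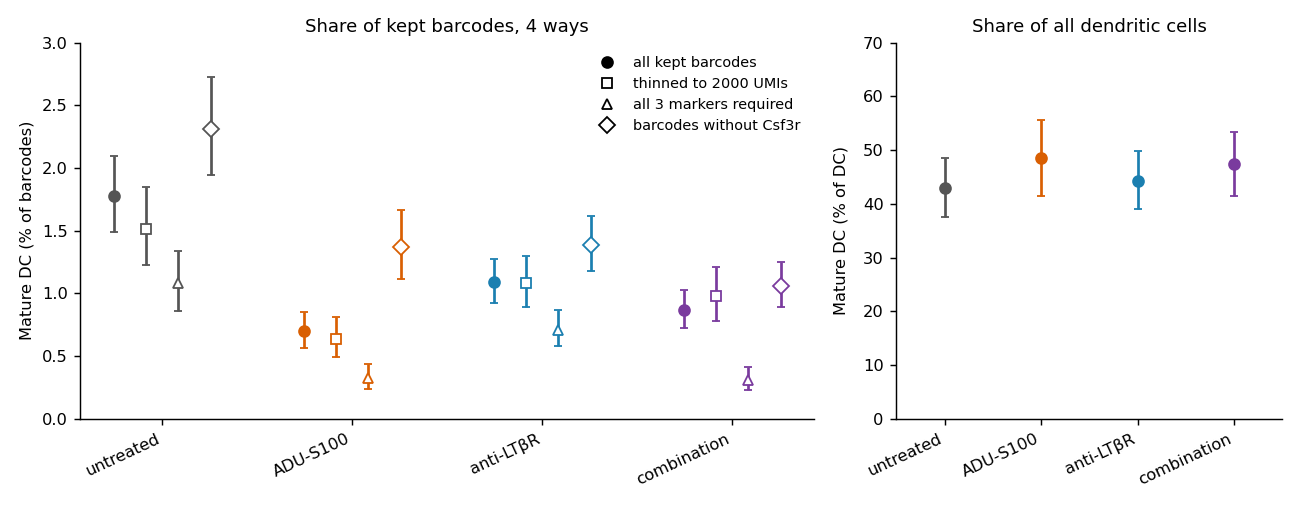
Share of mature DC in each library with exact 95% intervals for counting error, as a percentage of kept barcodes in 4 ways (left) and of all dendritic cells (right). The untreated share is the highest in all 4 ways on the left, while the 4 shares of DC on the right lie between 43.0 and 48.5%.

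Mature DC were not uniform within a library. Il12b was detected in 46 of 138, 31 of 100, 56 of 153 and 41 of 136 of them. Cells with it had more of Irf8, the transcription factor of the cDC1 lineage, at 1499, 2156, 1560 and 1431 CPM against 704, 768, 1012 and 538 in the cells without it. Cd40 stood at 377, 470, 395 and 508 CPM in cells with Il12b and at 219, 197, 199 and 225 in cells without it. The opposite held for Mgl2, a lectin of cDC2, which stood at 24.4, 8.71, 105 and 199 CPM with Il12b and at 276, 181, 467 and 321 without it. Il1b, the inflammatory cytokine, also stood lower in the cells with Il12b, at 1461, 2025, 1927 and 2586 CPM against 3002, 5074, 3300 and 2955. The order of the 2 kinds of cell was thus the same in all 4 libraries for Irf8, Cd40, Mgl2 and Il1b. Other cDC1 genes were mixed. Clec9a kept the order of Irf8, at 32.6, 118, 58.1 and 116 CPM with Il12b against 16.8, 20.1, 31.6 and 16.4. Naaa stood at 70.6, 87.1, 119 and 337 CPM against 101, 38.2, 147 and 157. Plet1 stood at 73.3, 209, 228 and 171 CPM against 141, 84.4, 213 and 313.5, so neither kept 1 order. Cxcl9, a chemokine for CXCR3-bearing T cells, did not keep one order, with 48.9 against 489 CPM in the untreated library and 348 against 335 with the combination.

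**Figure D3:**
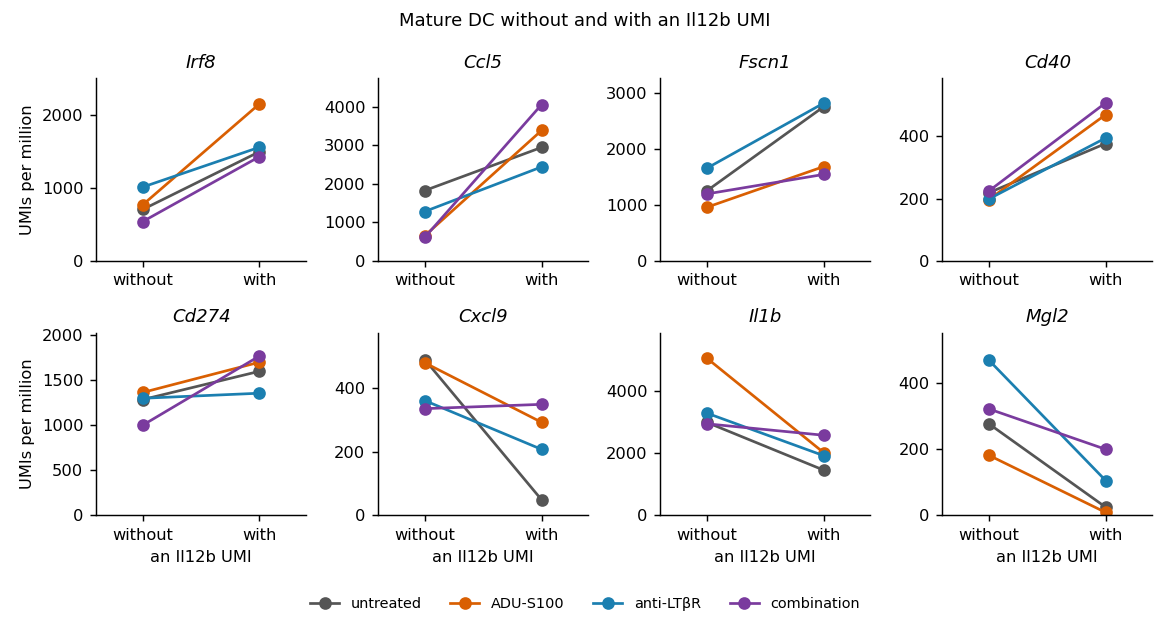
Level of 8 genes in mature DC without and with an Il12b UMI, in CPM, with 1 line per library. Irf8, Ccl5, Cd40 and Cd274 are higher with Il12b in all 4 libraries, as is Fscn1, which the rule used and which is shown as a description; Il1b and Mgl2 are lower in all 4, and Cxcl9 is lower in 3 and about equal with the combination.

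A smaller subset carried Apol7c. It was detected in 15, 6, 25 and 19 mature DC. Their level of Ccl5 was 5498, 6465, 2976 and 4783 CPM, compared to 1825, 1220, 1468 and 1063 in the cells without Apol7c, and that of Fscn1, which the rule used, was 2601, 2626, 4412 and 2392 against 1691, 1099.5, 1605 and 1099.7. The same cells had little of Plet1, a surface protein that is high in the cDC1 of these libraries, with 9.0, 24.8, 5.11 and 21.5 CPM against 130, 130, 267 and 316. The cells with Apol7c held 111130, 40373, 195598 and 92824 UMIs in total, so these Plet1 levels rest on very few UMIs. Irf8, the factor of the cDC1 lineage, stood at 981, 2254, 1385.5 and 1249.7 CPM with Apol7c and at 992, 1144.7, 1199.6 and 723 without it. H2-Ab1, an MHC class II chain, stood at 1665, 1089.8, 1283 and 2262 CPM with Apol7c and at 3007, 4235, 3638 and 4831 without it. In all 4 libraries, the cells with Apol7c had more Ccl5 and less H2-Ab1, and less Plet1 at these few UMIs. The subsets of Il12b and Apol7c overlapped in part: among thinned cells both were detected in 2 of 132, 2 of 86, 4 of 140 and 5 of 108.

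Ccl5 and Cxcl9 divided the mature DC in another way. Cells with Ccl5, which were 92, 57, 100 and 65, had Cxcl9 at 225, 159, 57.4 and 288 CPM, and those without it at 533, 790, 696 and 385. Cacnb3 stood at 1160.0, 953, 1059.8 and 802 CPM with Ccl5 and at 556, 527, 394 and 357 without it. Naaa, a lysosomal amidase that is high in cDC1, stood at 41.5, 18.7, 54.3 and 120 CPM with Ccl5 and at 184, 103, 269 and 294 without it. Irf8, the factor of the cDC1 lineage, went the other way, at 1194, 1493, 1341 and 1014 CPM with Ccl5 and 596, 797, 1057 and 610 without it. Cells with Ccl5 thus had more Cacnb3 and Irf8 and less Cxcl9 and Naaa than cells without it in each library, and for Cxcl9 the gap was smallest with the combination. Detection of these genes rises with depth, and cells with Ccl5 had median depths of 6973, 7962, 6636 and 3869 UMIs, against 7102, 5762, 6753 and 3270 UMIs without it.

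The next comparisons asked which genes of mature DC differed between each agonist and the untreated library. With ADU-S100, 93 of 4883 genes (1.9%) were called higher and 90 (1.84%) lower. With anti-LTβR, 70 of 5390 (1.3%) were higher and 59 (1.09%) lower. With the combination, 173 of 4838 (3.58%) were higher and 73 (1.51%) lower. The 3 comparisons share the untreated library, and each agonist library also enters a comparison with the combination. The UMIs of a called gene were often in few cells: at least 50% of those in the higher library were in 1 cell for 12 of the 93, 2 of the 90, 4 of the 70, 2 of the 59, 9 of the 173 and 1 of the 73 genes.

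The counts of called genes for the maturation program are close to the shares of all genes given above, and nothing is read from these counts. Of 29 genes of this list that were tested, Nudt17, a nudix hydrolase, fell with ADU-S100 by 1.13 on the log2 scale (124 to 56.4 CPM) and none rose, with a list median of -0.03. Its ratio was -0.84, and not called, with all 3 markers. With anti-LTβR only Apol7c rose and none fell, with a median of 0.03. With the combination Apol7c rose and Serpinb6b, a serine protease inhibitor, fell by 1.02 (822 to 404 CPM), with a median of -0.40 beside 0.01 over all genes tested. Serpinb6b lost its call in 5 alternatives, in which its ratio was between -0.96 (without doublet scores) and -0.60 (all 3 markers). In that comparison 25 of the 29 genes had a ratio below 0, while 51.3% of all genes tested had one above 0. The summed level of the list was 24989, 24028, 25055 and 19548 CPM. The further markers are genes of the same kind, so their lower number in the combination library is not independent of this sum. Whether the lower depth of that library plays a part was not tested. The chemokine Ccl22 stood at 1344, 1189.8, 1652 and 1374 CPM and the receptor Ccr7 at 2541, 3075, 2665 and 2005 CPM, but both were used to choose the cells.

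Apol7c was the only maturation gene called higher in any of the 3 comparisons. It stood at 35.2 (24.7 to 48.8), 44.0 (30.1 to 62.1), 177 (152 to 204) and 120.0 (94 to 151) CPM. Over untreated, the log2 ratio of the ADU-S100 library was 0.32 (-0.41 to 1.05), that of the anti-LTβR library 2.31 (1.81 to 2.88) and that of the combination library 1.76 (1.17 to 2.38). The libraries given anti-LTβR, alone or with ADU-S100, were thus high and the other pair low. The combination was above ADU-S100 alone by 1.43 (0.83 to 2.09), but by 0.88 (0.30 to 1.48), no longer called, with every member weighted the same. After thinning to 2000 UMIs, Apol7c was detected in 3.03, 5.81, 10.0 and 13.9% of mature DC, so the ADU-S100 library then lay between the untreated and anti-LTβR libraries. The ratio was 2.09 and 1.84 in members with all 3 markers and 2.25 and 2.03 without the cell with most UMIs. Macrophages had 1.24, 1.93, 3.0 and 2.99 CPM.

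Among genes of migration, the chemokine receptor Cxcr4 rose with ADU-S100 by 1.03 (96.0 to 197 CPM) and the transporter Slco5a1 fell by 1.07 (114 to 53.6 CPM), and Mmp14, a membrane metalloproteinase used to cross matrix, rose by 1.02 (49.9 to 102 CPM). With all 3 markers the ratios of Cxcr4 and Slco5a1 were 0.31 (-0.23 to 0.84) and -0.63 (-1.33 to -0.01), and neither was called there or with every member weighted the same. Mmp14 also rose with the combination, by 1.58 to 150 CPM, as did the integrin Itgb7 by 1.26. With anti-LTβR none of 16 rose and 1 fell, beside 1.3 and 1.09% of all genes, a count too small to set the list apart. That gene was Gpr183, the oxysterol receptor that positions DC and B cells, with a log2 ratio of -1.06 (599 to 288 CPM). Its ratio was -0.72 in thinned members, -0.76 with equal weights and -0.998 without doublet scores, and it was not called in these. Cyp7b1, an enzyme on the path that makes and breaks down such oxysterols, fell in the same library by 2.08 (109 to 25.4 CPM), but 39.6% of its untreated UMIs were in 1 cell.

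Of 10 co-stimulatory genes tested with ADU-S100, none was called, beside 1.9 and 1.84% of all genes. Cd86 stood at 1276, 1895, 1451 and 1420 CPM, Cd80 at 1002, 1088, 924 and 776 CPM, and Cd40 at 276, 283, 278 and 309 CPM. With anti-LTβR 2 of 9 fell, beside 1.09% of all genes. Icosl, the ligand of ICOS on T follicular helper and regulatory cells, fell by 1.41 (0.91 to 1.94 below), from 116 to 43.3 CPM and from 53 of 138 cells to 20 of 153. Tnfsf9, the ligand of 4-1BB on activated T cells, fell by 1.00 with anti-LTβR and by 1.11 with the combination, and stood at 132, 171, 65.8 and 60.8 CPM. The call of Tnfsf9 with anti-LTβR was at the threshold and was lost in 5 alternatives, in which its ratio was between -0.996 and -0.70. With the combination its ratio was -0.86 with equal weights and -0.55 (-1.36 to 0.14) with all 3 markers, and it was not called in either. Tnfsf9 in cDC2 stood at 131, 151, 140 and 188 CPM.

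Of the regulatory genes, Cd274 stood at 1393, 1465, 1317 and 1224 CPM and was not called in any comparison, and Cd200 stood at 358, 386, 322 and 245 CPM. Aldh1a2, the enzyme that makes retinoic acid, rose with anti-LTβR by 1.21 and with the combination by 1.32, from 19.6 to 46.1 and 49.3 CPM, with 20, 15, 49 and 30 UMIs. Socs3, a feedback inhibitor of cytokine signaling, rose with the combination by 1.09, from 185 to 394 CPM, and stood at 261 and 329 CPM with ADU-S100 and anti-LTβR, but its ratio was 0.90, and not called, in members with at least 2 further markers. Of the 15 regulatory genes tested with the combination, no other was called, which makes 2 higher and none lower beside 3.58 and 1.51% of all genes. Il10 had 0, 1, 0 and 0 UMIs.

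Of the cytokine genes tested, 2 of 9 rose with ADU-S100, 2 of 8 with anti-LTβR and 1 of 7 with the combination, beside 1.9, 1.3 and 3.58% of all genes, and Il6 was called in all 3. It stood at 22.5 (14.3 to 33.8), 64.6 (47.5 to 86.0), 56.4 (43.1 to 72.6) and 74.0 (54.0 to 99.0) CPM, in 9, 11, 20 and 16 cells, and rose by 1.51, 1.31 and 1.70. A single cell held 51.1% of its UMIs in the ADU-S100 library, and with all 3 markers required its ratio for anti-LTβR, 0.42, was no longer called, nor was it with every member weighted the same (0.81, 0.10 to 1.57). Il6 in macrophages of the same libraries stood at 11.4, 56.2, 51.2 and 32.0 CPM, and in T cells at 4.49, 25.3, 18.2 and 9.51 CPM. Il1a rose with ADU-S100 by 2.26, but 85.7% of its 49 UMIs were in 1 cell, and with anti-LTβR by 1.46. Il1b was not called and stood at 2446, 4111, 2745 and 2845 CPM, with its highest level in the ADU-S100 library, as in macrophages (2634, 6239, 3882 and 4333 CPM). Il15, which supports NK and memory T cells, fell with ADU-S100 by 1.31 (0.82 to 1.85 below), from 148 to 59.1 CPM and from 68 of 138 cells to 23 of 100. With every member weighted the same its ratio was -0.76 (-1.17 to -0.38) and was not called. Il12b was detected in 33.3, 31, 36.6 and 30.1% of mature DC, while its level was 1250.3, 1077, 649 and 965 CPM, and the ratio of anti-LTβR to untreated, -0.95 (-1.08 to -0.81), missed the size required.

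Of 11 chemokine genes tested with the combination, 3 rose and none fell, beside 3.58 and 1.51% of all genes, with a median of 0.32. Cxcl2 and Cxcl3, which attract neutrophils through CXCR2, rose by 1.18 and 3.07. Cxcl2 stood at 340, 333, 326 and 772 CPM, with the combination library above the other 3, and Cxcl3 at 7.83, 11.0, 29.2 and 69.0 CPM in 2, 7, 8 and 7 cells. Ccl9, which attracts CCR1-bearing myeloid cells, rose by 2.24, to 122 CPM in 17 cells, of which 1 held 48.6% of the UMIs. Cxcl2 lost its call without the cell that held most of its UMIs (0.97) and in members with at least 2 further markers (0.49). Cxcl2 in T cells stood at 122, 1302, 300 and 596 CPM, in another order than in mature DC. Ccl4 rose with ADU-S100 by 1.61 and fell with anti-LTβR by 1.31, and stood at 56.8, 175, 22.6 and 46.0 CPM in 11, 11, 11 and 9 cells. With equal weights its ratios were 0.98 and -0.77, and neither was called. With every member weighted the same, its ratios of 0.98 and -0.77 were no longer called.

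The T cell chemokines were not called in any comparison with untreated. Ccl17 stood at 573 (527 to 621), 530 (478 to 585), 1118 (1055 to 1184) and 804 (734 to 878) CPM, and its ratio of 0.96 (0.82 to 1.11) with anti-LTβR was just under the size required. Its share of cells was 37.0, 25, 39.9 and 36.0%. Ccl5 stood at 2224, 1512, 1745 and 1630 CPM, with the untreated library the highest. Cxcl9 stood at 330, 420, 298 and 339 CPM and Cxcl16, the ligand of CXCR6, at 796, 1001, 834 and 679 CPM. In cDC1, Ccl17 stood at 39.0, 54.1, 57.7 and 174 CPM.

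**Figure D4:**
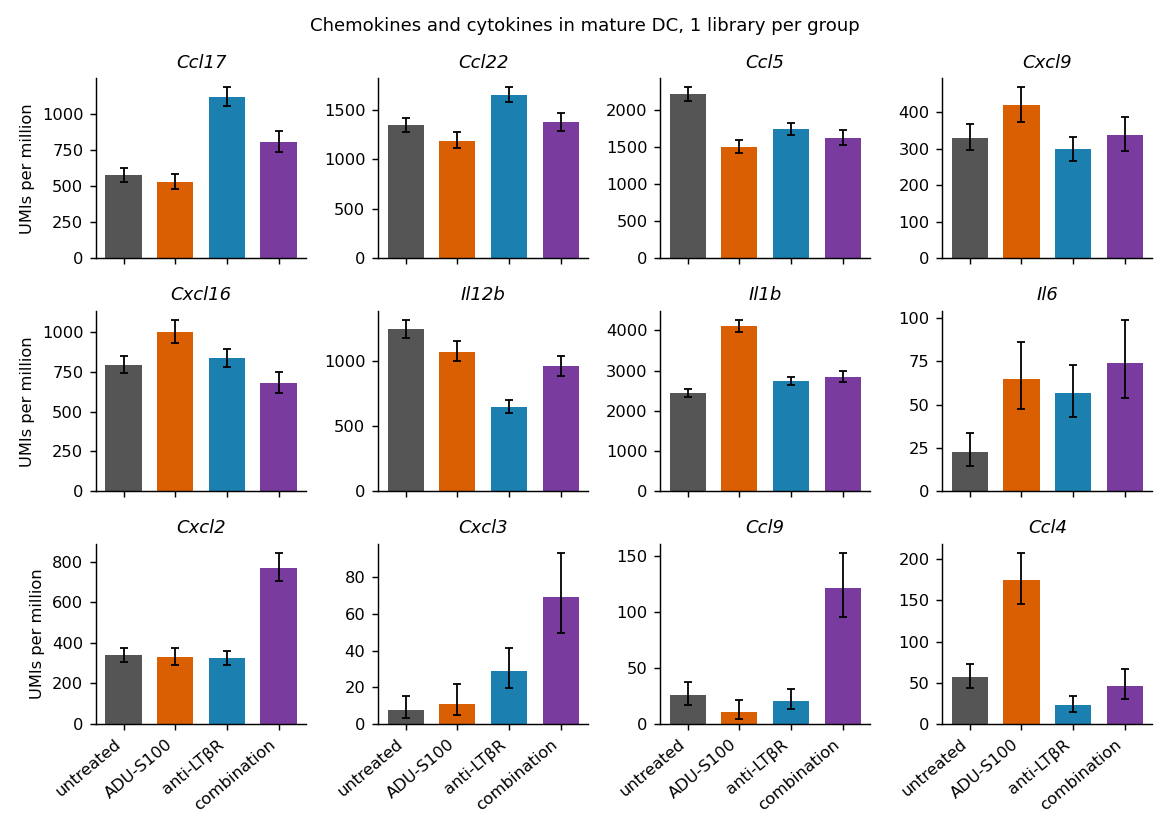
Level of 12 chemokine and cytokine genes summed over the mature DC of each library, in CPM, with exact Poisson 95% intervals for counting error only. Ccl17 is highest with anti-LTβR, Il1b and Ccl4 are highest with ADU-S100, Cxcl2, Cxcl3 and Ccl9 are highest with the combination, and Il6 is lowest in the untreated library.

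Genes of the pathways that the agonists act on were also compared. Of 22, 23 and 23 NF-κB and LTβR genes tested, 1, 0 and 1 were called higher, near the 1.9, 1.3 and 3.58% of all genes. Tnfaip2 rose with ADU-S100 by 1.07 and with the combination by 1.30 and stood at 41.1, 86.7, 78.1 and 102 CPM, and no other was called in these comparisons or with anti-LTβR. Map3k14 stood at 764, 788, 908 and 592 CPM, Relb at 714, 765, 754 and 582 CPM, and Nfkbia, an inhibitor that NF-κB itself induces, at 844, 1538, 1097 and 1129 CPM. The receptor Ltbr had 12, 10, 10 and 12 UMIs, too few for a comparison. Of the STING and interferon pathway genes, Irf7 rose with the combination by 1.11, from 57.8 to 125 CPM (0.87 with equal weights and 0.93 with at least 2 further markers, not called). With either agonist alone none of 18 was called, which at 1.9 and 1.84% of all genes called with ADU-S100 and 1.3 and 1.09% with anti-LTβR says nothing about the list. Sting1 stood at 86.2, 85.3, 72.4 and 69.0 CPM.

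Of 35 interferon-stimulated genes tested with ADU-S100, 1 rose and 2 fell, beside 1.9 and 1.84% of all genes, with a median of -0.06. Epsti1 fell by 1.16 (1.00 to 1.31 below) and stood at 1423, 638, 866 and 955 CPM in 118, 67, 107 and 90 cells, with the untreated library above all treated ones. After thinning it was detected in 71.2, 46.5, 53.6 and 50% of mature DC, and in members with all 3 markers its ratio was -1.22. Epsti1 in cDC1 stood at 258, 230, 236 and 209 CPM. Mx1 fell with ADU-S100 by 1.30 (65.6 to 26.1 CPM; -0.999, not called, with all 3 markers), while Oasl1 rose by 1.37 with ADU-S100 and by 1.63 with anti-LTβR and stood at 47.0, 122, 147 and 74.0 CPM. Isg15 stood at 368, 408, 381 and 483 CPM and was not called. With the combination only Lgals3bp rose, by 1.23 (0.85, not called, with at least 2 further markers), and the median of 34 genes was 0.16. With anti-LTβR 1 of 35 rose, and these counts are near the 1.3 and 3.58% of all genes.

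The summed level of MHC class II genes was 24188, 31216, 26222 and 32191 CPM and that of MHC class I genes 16425, 15977, 15515 and 14235 CPM. Called genes were 1 of 17, 0 of 17 and 1 of 16 for class II and 0 of 24, 1 of 25 and 2 of 25 for class I, all higher, which is read against the 1.9, 1.3 and 3.58% of all genes. Of MHC class I genes, H2-M2, a nonclassical gene of mature DC, rose with anti-LTβR by 1.24 and with the combination by 1.41, from 21.5 to 51.7 and 57.5 CPM, and the chaperone Calr rose with the combination by 1.02 (0.60 in thinned members and 0.93 with all 3 markers, not called). B2m stood at 4990, 4843, 4644 and 4231 CPM. Of MHC class II genes, the ubiquitin ligase Marchf1, which removes MHC class II from the surface, rose with the combination by 1.20 and the protease Ctsl with ADU-S100 by 1.19 (0.93, 0.08 to 1.82, not called, with equal weights). H2-Ab1 stood at 2861, 4060 and 3205 CPM in the first 3 libraries and at 4439 CPM with the combination. The medians of the class II list were 0.40, 0.12 and 0.32, beside -0.04, -0.02 and 0.01 over all genes tested.

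With the combination, 6 of 11 cDC1 genes rose and none fell, beside 3.58 and 1.51% of all genes, with a median of 1.03. They were Clec9a (1.03), Cadm1 (1.34), Naaa (1.22), Itgae (1.34), Ppt1 (1.17) and Plet1 (1.22). Naaa stood at 90.1, 53.6, 135 and 210 CPM, in 22, 16, 28 and 26 cells. The median became -0.43 in members with all 3 markers and -0.32 in those with at least 2 further markers, an alternative chosen after the data were seen, over the genes that still had enough UMIs. In the latter, Naaa (-0.24) and Itgae (0.54) lost their calls, Plet1 kept its own at 1.69 (1.24 to 2.16), and Clec9a, Cadm1 and Ppt1 had too few UMIs for a ratio. Naaa also lost its call in thinned members, at 0.76. With ADU-S100, Clec9a and Cadm1 rose and none of 11 fell, beside 1.9 and 1.84% of all genes, and the median of 0.09 became -0.50 with equal weights and -0.51 without the cell with most UMIs. With anti-LTβR none was called, beside 1.3 and 1.09%.

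Of 16 cDC2 genes tested with the combination, 6 rose and none fell, beside the same shares of all genes, with a median of 0.91: Itgam (1.66), Klf4 (1.48), Fcgr2b (1.11), Ffar2 (1.01), Cd300a (1.67) and Csf1r (1.35). Fcgr2b lost its call in thinned members (0.51) and with equal weights (0.88), and Ffar2 under median-ratio scaling (0.99) and without doublet scores (0.97). Several of these genes are also expressed by monocytes and macrophages. The summed level of monocyte genes was 545, 576, 341 and 817 CPM, and the medians of the tested monocyte and macrophage genes with the combination were 0.54 (6 genes, 1 called higher) and 0.65 (4 genes, 1 called higher), with macrophage sums as given above. The part of such cells or RNA was not tested. With ADU-S100, 2 of 14 cDC2 genes rose and 2 fell, beside 1.9 and 1.84% of all genes, with a median of 0.01. With anti-LTβR, 2 of 15 rose and 1 fell, beside 1.3 and 1.09% of all genes, with a median of 0.06. Klf4, a transcription factor of cDC2 development, was called in all 3 comparisons and stood at 24.5, 89.4, 66.8 and 69.0 CPM in 15, 24, 27 and 23 cells. The inhibitory receptor Cd300a was called in all 3 as well, at 22.5, 45.4, 79.9 and 72.3 CPM, but with ADU-S100 its ratio of 1.00 became 0.82 with every member weighted the same. Klf4 and Cd300a in cDC2 stood at 97.3, 182, 270 and 188 CPM and at 259, 300, 283 and 303 CPM. Lyz2, a lysozyme of monocytes and macrophages, fell with ADU-S100 by 1.63 and with anti-LTβR by 1.4 and stood at 386, 124, 146 and 411 CPM in 28, 27, 35 and 51 cells, of which 1 held 30.7% of the untreated UMIs. Its ratio with anti-LTβR was -0.78 in thinned members and -0.88 with equal weights, and was not called in these. Of the monocyte genes, Ccr2 fell with ADU-S100 by 1.52 and Vcan, a matrix proteoglycan, was called lower with both single agents, with 54, 6, 1 and 21 UMIs, of which 1 cell held 46.3% in the untreated library.

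**Figure D5:**
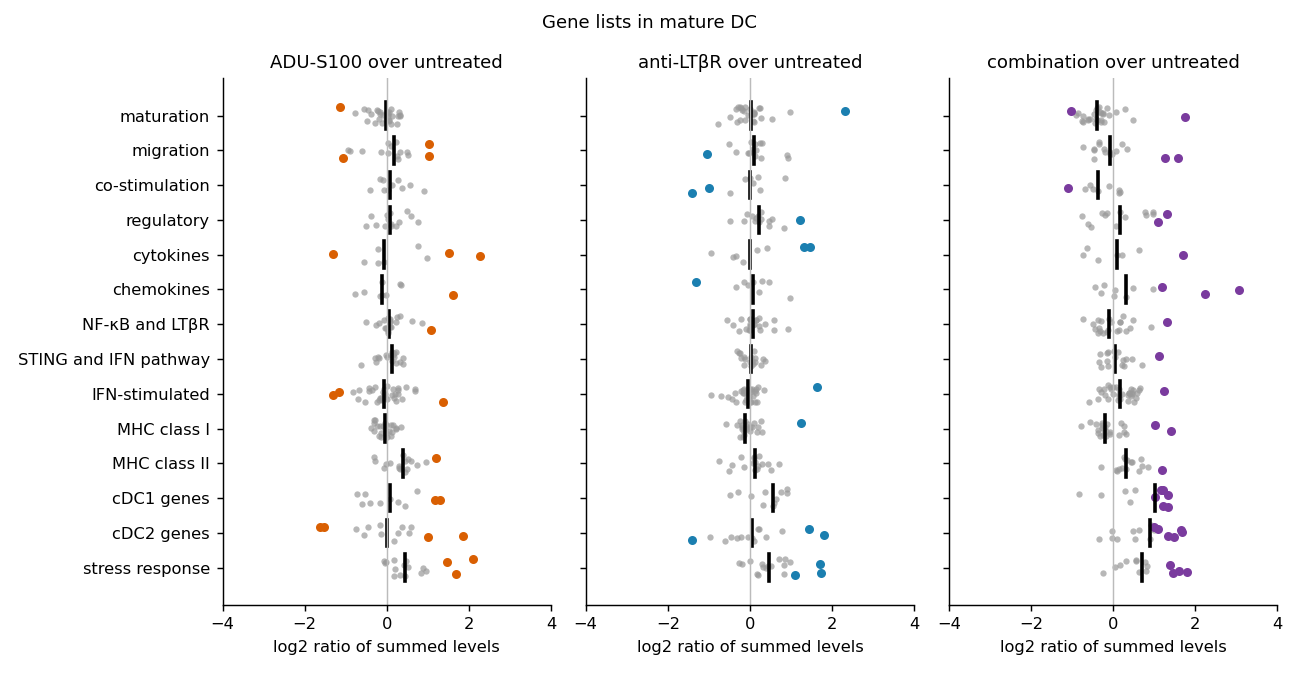
Log2 ratio of each tested gene of 14 lists in mature DC, for the 3 treated libraries over the untreated one. Colored points were called, gray points were not, and black bars are list medians. With the combination the median of the maturation list lies below 0, with 4 of 29 genes above 0. Those of the cDC1 and cDC2 lists lie above 0, with 9 of 11 and 13 of 16 genes above 0. Of all genes tested with the combination, 51.3% were above 0.

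Mfge8, which bridges dying cells to phagocytes, was called in both libraries given anti-LTβR. It stood at 58.8 (44.8 to 75.6), 85.3 (65.4 to 109), 177 (152 to 204) and 271 (231 to 316) CPM, in 23, 13, 34 and 33 cells, and rose with anti-LTβR by 1.58 and with the combination by 2.20. After thinning it was detected in 5.30, 4.65, 15.0 and 20.4% of mature DC. The combination was above ADU-S100 alone by 1.66 (1.24 to 2.11). A single cell held 43.1% of its UMIs in the anti-LTβR library, and the ratios were 1.5 and 2.61 without the cell that held most. Apol7c stood at 11.9 CPM in combination cells with Mfge8 and at 161 CPM in those without it, and at 397 and 97.3 CPM in the anti-LTβR library, so the levels of these genes had no common order. Of uptake genes, 1 of 7, 1 of 9 and 3 of 8 rose, beside the same 1.9, 1.3 and 3.58% of all genes. The scavenger receptor Cd36 rose with anti-LTβR by 2.64, the phosphatidylserine receptor Timd4 with ADU-S100 by 1.92, and Clec4n, Itgav and Lrp1 with the combination. Itgav lost its call with equal weights (0.77), without the cell with most UMIs (0.21) and with all 3 markers (-0.016), and Clec4n with at least 2 further markers (0.96).

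Bcl2l11, which encodes the cell death protein BIM, rose with ADU-S100 by 1.46 (1.02 to 1.93) and with the combination by 1.05 (0.56 to 1.56), from 61.7 to 171 and 128 CPM, in 37, 49, 49 and 42 cells. It was the only called gene of 15 survival genes in both comparisons, beside 1.9 and 3.58% of all genes called higher. In members with all 3 markers the combination ratio was 0.59, and without doublet scores it was 0.98, not called in either. Of genes of the stress response that dissociation can induce, 3 of 17, 3 of 18 and 4 of 14 rose, beside 1.9, 1.3 and 3.58% of all genes. Fosb rose in all 3 comparisons, by 1.46, 1.09 and 1.61, and stood at 71.5, 197, 153 and 219 CPM. Hspa1a and Hspa1b, heat shock proteins, rose with anti-LTβR by 1.71 (0.92, not called, with equal weights) and 1.73, and Egr1, Ier3 and Nr4a1 rose with the combination, but Nr4a1 was at 0.63 (0.11 to 1.14), not called, with at least 2 further markers. The list medians were 0.44, 0.47 and 0.70, and the part of handling in these values was not tested. Cell cycle genes were in few cells, with Top2a in 11, 2, 5 and 10. With the combination, 2 of 8 tested rose, beside 3.58% of all genes, with a median of 0.66, which was -0.037 in thinned members. Over anti-LTβR, 5 of 8 were higher with the combination, beside 2.7% of all genes, with a median of 1.20. With equal weights the ratio of Pcna in this comparison was 0.80 (0.14 to 1.465), and it was not called. Over ADU-S100, 2 of 6 were higher, beside 3.35% of all genes, with a median of 0.42.

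The genes with the largest ratios were often carried by few cells. With ADU-S100, F13a1 (2.99), Tmem108 (2.92), Inhba (2.05), Errfi1 (2.03) and the growth factor Egf (1.92) were among the 8 largest rises, and 1 cell held 94.5% of the F13a1 and 63.9% of the Inhba UMIs. Inhba was at 0.99, not called, with equal weights. Among the largest falls, Spock1, an extracellular proteoglycan, had 57 UMIs in 5 untreated cells and none with ADU-S100, at least 13.5-fold lower against a floor of 3 UMIs per library. Dscaml1 (-2.88), an adhesion protein, fell from 24 of 138 cells to 4 of 100, and the DNA synthesis and methylation enzymes Rrm1 (-2.11) and Dnmt1 (-1.63) also fell. Apba1 (-1.90) and the calcium channel Cacna1s (-1.80) fell from 37 and 30 cells to 10 and 8, while Fabp4 (-1.90) and Dpp10 (-2.11) were in 9 and 10 untreated cells and in 4 and 3 after treatment.

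With anti-LTβR, the largest rises were Areg (2.84), Cd36, Clu (2.35), Apol7c, Hdac9 (2.10), Abcg3 (1.97), Ctnnd2 (1.96) and Afmid (1.83). Areg, an EGF receptor ligand, was in 6 cells, of which 1 held 52.6% of the UMIs, whereas Abcg3 was in 34 and Afmid in 31. Clu, a secreted chaperone, stood at 19.6, 17.9, 102 and 13.1 CPM and had no UMI in any cDC1 or cDC2. The largest falls were the glutamate receptor Gria3 (-3.49), from 21 of 138 cells to 4 of 153, Klf12 (-2.78), Cyp7b1, Sned1 (-1.89), Stoml1 (-1.83), Gpm6b (-1.70), the prion protein Prnp (-1.66) and Dpp10 (-1.62). Prnp was the most widely detected of these, in 53, 35, 31 and 28 cells, and stood at 141, 208, 44.2 and 120.0 CPM.

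With the combination, the largest rises were the linker histone H1f5, with 3 UMIs in 3 untreated cells and 54 in 6 combination cells (4.71, 3.29 to 7.24), Acp5 (3.70), of which 1 cell held 77.9%, Areg (3.23), Cxcl3, Inhba (2.68), Hdac9 (2.53), Ccl9 and Plaur (2.21). Plaur, the urokinase receptor, was the most widely detected, in 17, 13, 15 and 38 cells, and stood at 35.2, 66.0, 59.2 and 164 CPM. Inhba, an activin subunit, was in 7, 9, 7 and 22 cells, and in macrophages it stood at 82.2, 413, 195 and 182 CPM. The largest falls were Spock1, with 1 UMI (-4.51, -10.41 to -2.55), Klf12 (-2.42), Nr6a1 (-2.21), the natriuretic peptide receptor Npr1 (-2.10), Arpin (-1.89), Stoml1 (-1.79), Tubb2b (-1.79) and Arc (-1.64). Npr1 fell from 27 of 138 cells to 8 of 136, and Arpin, an inhibitor of actin branching, from 36 to 7, in the library of lower depth.

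The last comparisons set the combination beside each agonist alone. Against ADU-S100, 142 of 4236 genes (3.35%) were higher and 62 (1.46%) lower, and against anti-LTβR 131 of 4845 (2.7%) and 63 (1.3%). Against ADU-S100, the largest rises were Inpp4b (4.14), Ccl9 (3.39), Acp5 (3.01), Dpp10 (2.90) and Cxcl3 (2.58), and the largest falls were Tmem108 (-4.21), Hsph1 (-2.45), Havcr1 (-2.26), Rerg (-2.01) and Hspa1b (-1.91). Tmem108 had too few UMIs or cells for a call with all 3 markers. Inpp4b, a lipid phosphatase, stood at 29.4, 4.13, 21.6 and 83.8 CPM in 12, 2, 13 and 17 cells. Against anti-LTβR, the largest rises were Acp5 (3.16), Inhba (3.01), Ccl9 (2.53), the cholesterol exporter Abca1 (2.43) and Dpp10 (2.41), and the largest falls were Spock1 (-4.85, -10.75 to -2.90), Clu (-2.87), Hspa1a (-2.55), Nr6a1 (-2.15) and Hspa1b (-1.95).

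Cxcl2 and Cxcl3 were higher with the combination than with either agonist, by 1.21 and 2.58 over ADU-S100 and by 1.24 and 1.24 over anti-LTβR. In members with at least 2 further markers the ratios of Cxcl2 were 0.53 and 0.57, and that of Cxcl3 over anti-LTβR was 0.91, and none of these was called. Cxcl3 over anti-LTβR was also not called without doublet scores (0.35, -0.50 to 1.17), with equal weights (0.96) or with all 3 markers (1.30, with too few UMIs or cells). Il2ra, the IL-2 receptor α chain of mature DC, was lower than with either, by 1.13 and 1.25, and stood at 211, 249, 272 and 113 CPM. With all 3 markers the ratios were -0.66 and -0.62, and over ADU-S100 it was -0.98 without the top cell and -0.92 with at least 2 further markers, and none was called. Tnfsf4, the OX40 ligand, stood at 72.5, 136, 51.7 and 44.4 CPM and was lower with the combination than with ADU-S100 by 1.60, but its ratio was -0.96 with equal weights and -0.99 with all 3 markers, not called. Mx1 was higher with the combination than with ADU-S100, by 1.87. Of the maturation list, Apol7c alone was called against ADU-S100 and no gene against anti-LTβR, with medians of -0.37 and -0.39 beside 0.04 and 0.03 over all genes tested.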

How the data were processed

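Single-cell RNA libraries of live CD45+ tumor cells, 1 per group, were deposited as matrices of UMI counts per gene and barcode, which the authors made with Cell Ranger (8.0.1 per the file headers, 7.1.0 and mm10 per the submitters' notes) and did not normalize. The 33696 features were used as named. Barcodes were kept within 300 to 5000 genes and 6% mitochondrial UMIs, as in the methods of the study. Counts were summed over member cells and scaled to the total of each library. Log2 ratios used a pseudocount of 0.5 UMI, exact binomial intervals at 95%, and no p-value, since cells are not replicates. Shares have Clopper-Pearson intervals and levels have Poisson intervals. The calls were tested on simulated counts that had no clustering of UMIs by cell. That test therefore does not cover such clustering or the limit of 5 cells. Scrublet (scanpy 1.11.5) marked 0, 0, 1 and 0 doublets, so it had not worked, and removal of the highest scores was an alternative only. Thinning drew 2000 UMIs per cell. Named genes were the 8 largest called rises and falls per comparison with untreated, the 5 largest per comparison with an agonist, and members of fixed lists, leaving out predicted, ribosomal, mitochondrial, sex-linked, immunoglobulin and variable T cell receptor genes as well as the lists for other cell types. Igkc, Ighm, Jchain, Mmp9, C1qb, Lyz2, Ccr2 and Vcan are given as markers of other cells or lineages. The members and lists were chosen with earlier results of these data known. Python 3.11.15, numpy 2.4.6, scipy 1.17.1, pandas 2.3.3 and matplotlib 3.10.9 were used.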

Additional observations from a re-analysis of the deposited data

Results flagged for a closer look

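For the share of mature DC and for 10 genes, anti-LTβR over untreated and the combination over ADU-S100 had values on opposite sides of no difference. None of these differences was tested, since each group is 1 library. The share ratio was 0.614 for anti-LTβR over untreated and 1.241 (0.960 to 1.61) for the combination over ADU-S100. The latter interval includes 1, and the ratio was 0.774 without Csf3r barcodes and 0.951 with all 3 markers, on the same side as 0.614. After thinning to 2000 UMIs it was 1.54 (1.11 to 2.12), on the other side, and its interval excludes 1. In the same order, the log2 ratio was -1.62 and 2.9 for Dpp10, -2.08 and 1.03 for Cyp7b1, -3.49 and 1.31 for Gria3, -1.0 and 2.13 for Dscaml1, and -1.4 and 1.73 for Lyz2. The opposite signs were seen for Errfi1 at 1.14 and -1.1, for Rerg at 1.38 and -2.01, for Tmem108 at 1.14 and -4.21, for Hspa1a at 1.71 and -1.79, and for Hspa1b at 1.73 and -1.91. Several were carried by few cells, with Hspa1b in 6, 12, 10 and 7 and Tmem108 in 4, 6, 9 and 2 mature DC. Several calls were also lost under alternatives. Cyp7b1 in the combination over ADU-S100 was 0.27 with equal weights and Errfi1 was -0.41 without the top cell. In anti-LTβR over untreated, Dscaml1 was -0.93 without doublet scores, Lyz2 was -0.78 in thinned members, and Rerg and Hspa1a were 0.96 and 0.92 with equal weights.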

How the results depend on the processing

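No paired analysis was possible because each group is 1 library, and no replicate could be left out. The share ratio of the combination to untreated was 0.647 after thinning to 2000 UMIs. With all 3 markers, the share ratios were 0.304 for ADU-S100 and 0.289 for the combination over untreated, and 0.951 and 0.438 for the combination over ADU-S100 and anti-LTβR. Without Csf3r barcodes they were 0.593 for ADU-S100 and 0.774 for the combination over ADU-S100. Among dendritic cells they were 1.13, 1.03 and 1.10 over untreated, the opposite direction, and 1.07 for the combination over anti-LTβR. Called genes, in the order of the 5 comparisons, were 187, 159, 346, 385 and 330 higher and 230, 167, 132, 129 and 128 lower at 20 UMIs or more. At 200 UMIs or more they were 10, 9, 23, 14 and 13 higher and 8, 6, 13, 12 and 12 lower. In thinned members they were 33, 18, 47, 32 and 33 higher and 39, 25, 29, 37 and 32 lower, and fewer UMIs were tested there. With every member weighted the same, 163 and 184 were called for ADU-S100, 112 and 113 for anti-LTβR, and 107 were lower in the combination than with ADU-S100. With all 3 markers, 84, 54 and 49 were higher in the 3 comparisons of the combination, and of 183, 129 and 246 calls over untreated 57, 53 and 48 were called again. Medians turned to -0.037 for cell cycle genes in thinned members, and to -0.43 (all 3 markers) and -0.32 (at least 2 further markers) for cDC1 genes, each for the combination over untreated. Ratios turned to -0.016 for Ccl4 (combination over anti-LTβR, equal weights), -0.016 for Itgav (combination over untreated, all 3 markers), -0.047 for Mgl2 (combination over ADU-S100, all 3 markers) and -0.24 for Naaa (combination over untreated, further markers). Where no construction shows it, the cause was not tested. Of the values of named genes under the alternatives, 1697 kept direction and call, 118 kept direction only and 4 turned. Of the 1697, 230 and 32 came from a changed UMI floor alone, which cannot lose a call. Genes with too few UMIs drop out of this tally. In thinned members 32 kept their call and 9 lost it, and with all 3 markers 66 kept it, 20 lost it and 2 turned. The settings without the top cell, with 2 or more further markers and without ribosomal and mitochondrial genes were chosen after the data were seen. Depth limits genes under 50 UMIs, and the combination library most.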
